A study of Homo sapiens with 42 samples.

Results

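Collagen, laminin and integrin genes were followed through chromatin accessibility in 4 EGFR-mutant lung adenocarcinoma cell lines, PC9, H1975, HCC827 and HCC2935. The members were all annotated ATAC-seq regions whose gene symbol was COL with digits, A and digits, LAMA, LAMB or LAMC with a digit, ITGA or ITGB with digits, or ITGAV. The rule used gene names and no measured value, and the symbol is the one the deposited annotation ties to the region, for distal regions by nearness, which does not show that the region acts on that gene. It found 1337 of 242490 annotated regions over the 4 lines, of which 665 were collagen, 279 laminin and 393 integrin regions. PC9 had 406 of 69565, H1975 433 of 76952, HCC827 154 of 30709 and HCC2935 344 of 65264. The regions belonged to 72 genes (42 collagen, 12 laminin and 18 integrin genes), and 48 of these genes had a region in every line. The regions were called separately in each line, so a gene is represented by different numbers of regions in different lines.

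The series held 42 libraries in 14 groups of 3, labelled as biological triplicates. Control cells were kept free of drug for 21 days and then given DMSO for 3 days. Drug tolerant persister cells (DTP) were the cells left after 24 days in 500 nM osimertinib, an inhibitor of mutant EGFR. The combo cells had 21 days of 500 nM osimertinib followed by 3 days of 150 nM AZD5153, an inhibitor of bromodomain proteins, and whether osimertinib stayed on for those 3 days is not stated in the labels. In PC9 and H1975 only, a group given AZD5153 alone had 21 days free of drug and then 3 days of 150 nM AZD5153. All groups came from bulk cultures, each line stands for the tumour of 1 patient, and a change in the mix of cells cannot be told apart from a change within cells.

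Collagens form the fibrils, sheets and anchors of the extracellular matrix, laminins are the 3-chain proteins that build the basement membrane under epithelia, and integrins are the alpha and beta chain receptors by which cells hold on to both. In lung epithelium, laminin with the chains LAMA3 and LAMB3 and its receptor integrin alpha-6 beta-4 fix cells to the basement membrane, and integrin alpha-v beta-6 activates TGF-beta. ATAC-seq counts the insertions of a transposase into open chromatin. An open promoter or intronic element is often, but not always, found at an expressed gene, and no RNA or protein level was measured here.

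Total counts over regions ran from 3989287 to 5193390 per library in PC9, from 6200672 to 10062505 in H1975, between 1724680 and 4242868 for HCC827, and between 3968690 and 8066287 for HCC2935. The spread between libraries of a group was very unequal, with a biological coefficient of variation of 0.988% for PC9, 3.2% for H1975, 10.1% for HCC2935 and 45% for HCC827. In PC9, 8 of 12 pairs of libraries of the same group were not shown to differ by more than counting noise. The same held for 5 of 12 pairs in H1975 and none of the 9 in HCC827 or the 9 in HCC2935. For PC9 and H1975 the main counts of calls are for this reason repeated after summing the 3 libraries of each group to 1, with the dispersion of HCC2935 put in place of their own. All 6 epithelial markers had a promoter region in every line, against 0 to 1 of 3 fibroblast and 0 to 1 of 3 immune markers, 2 to 3 of 3 lung adenocarcinoma markers and 1 to 2 of 2 endothelial markers. Levels are given as CPM, the usual counts scaled to library total, with the TMM correction. A region was called when its adjusted p was under 0.05 in edgeR's quasi-likelihood test, with Benjamini-Hochberg adjustment over all regions tested in the line. Folds are log2 differences with their standard error, and every p without another name is that adjusted p.

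Promoter sequences from RefSeq (GRCh38.p14, from 250 bases before the start site to 50 after it) were found for 52 of the 72 genes, in 68 windows. The AP-1 motif TGACTCA, read on both strands, stood in 3 of the 68 windows (4.41%), against 4.95% of 35116 windows of all genes. It stood in 0 of 39 collagen, 2 of 11 laminin and 1 of 18 integrin windows. The TEAD motif GGAATG, which does not overlap it, stood in 5 of the 68 (7.35%), against 14% of all windows. Both AP-1 laminin windows are those of LAMA3 and LAMB3. The next 4 windows are shown because the results below turn on the regions over them, with AP-1 matches in capitals and all other bases in lower case. LAMA3 lies at chr18:23872770-23873069 on the plus strand and LAMB3 at chr1:209651325-209651624 on the minus strand. ITGA6 lies at chr2:172427336-172427635 and ITGB8 at chr7:20330650-20330949, both on the plus strand and both without a match to either motif in these windows.
LAMA3: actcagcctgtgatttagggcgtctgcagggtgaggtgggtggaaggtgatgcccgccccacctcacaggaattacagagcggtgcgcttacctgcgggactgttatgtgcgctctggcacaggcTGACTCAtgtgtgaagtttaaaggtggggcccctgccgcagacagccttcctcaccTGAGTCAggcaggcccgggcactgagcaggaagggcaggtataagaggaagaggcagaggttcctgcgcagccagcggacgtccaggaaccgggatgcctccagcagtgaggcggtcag
LAMB3: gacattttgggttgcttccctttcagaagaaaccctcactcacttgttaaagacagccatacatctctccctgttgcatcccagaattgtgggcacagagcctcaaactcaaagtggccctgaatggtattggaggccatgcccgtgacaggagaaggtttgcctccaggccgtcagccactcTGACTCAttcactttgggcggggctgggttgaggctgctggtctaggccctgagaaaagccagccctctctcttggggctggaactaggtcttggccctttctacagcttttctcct
ITGA6: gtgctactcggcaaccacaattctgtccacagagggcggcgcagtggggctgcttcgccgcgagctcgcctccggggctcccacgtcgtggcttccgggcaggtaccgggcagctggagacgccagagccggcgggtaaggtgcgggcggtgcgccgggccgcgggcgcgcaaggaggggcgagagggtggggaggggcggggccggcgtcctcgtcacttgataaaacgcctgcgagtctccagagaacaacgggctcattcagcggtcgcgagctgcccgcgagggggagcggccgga
ITGB8: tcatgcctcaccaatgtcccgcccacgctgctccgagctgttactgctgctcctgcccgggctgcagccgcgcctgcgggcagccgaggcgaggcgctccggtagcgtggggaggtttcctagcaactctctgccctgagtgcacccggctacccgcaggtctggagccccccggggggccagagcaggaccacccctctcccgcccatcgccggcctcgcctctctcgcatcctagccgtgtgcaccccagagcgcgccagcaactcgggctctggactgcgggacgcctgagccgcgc
The LAMA3 matches lie 125 and 69 bases before the start site and the LAMB3 match lies 67 bases before it. The ITGA5 window, of the alpha chain of the fibronectin receptor, held an AP-1 match 6 bases and a TEAD match 82 bases before the start. The tested regions covered at least 275 of the 300 bases of the LAMA3 window and all 300 of the LAMB3 window in each line.

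The members together held fewer promoter regions and more intronic regions than annotated regions in general, except that the laminins of HCC827 were 67.6% promoter and 21.6% intronic. Promoter regions made up 44.6% of the members in PC9 (51.5% of all annotated regions), 35.6% for H1975 (46.7%), 49.4% for HCC827 (53.3%) and 34.9% for HCC2935 (44.6%). Intronic regions made up 35.2%, 40.2%, 33.1% and 42.2%, against 23.9%, 27.1%, 23.2% and 29.7%. Much of what follows is therefore about elements inside these long genes.

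Mean accessibility per region was highest for integrins in every group and lowest for collagens in every group except H1975 with AZD5153 alone, where laminins were lowest. In PC9 the laminin mean went from 11.9 ± 0.13 CPM per region in control (SD, n = 3) to 10.3 ± 0.35 in DTP, and the integrin mean from 14 ± 0.23 to 12.2 ± 0.07. The median laminin region went the other way, from 6.95 CPM in control to 7.42 in DTP (means of the library medians), while the median integrin region went from 8.56 to 8.10. In H1975 the laminin mean was 11.5 ± 0.25 in control, 9.05 ± 0.31 in DTP, 6.63 ± 0.14 with AZD5153 alone and 10.4 ± 0.12 in combo. The H1975 integrin mean was 13.3 ± 0.23, 10.5 ± 0.33, 9.45 ± 0.11 and 12.7 ± 0.26 in the same order. In both lines the control libraries lay above the DTP libraries in both families. HCC2935 differed in direction, with laminins at 9.82 ± 0.44 in control and 10.8 ± 0.42 in DTP and integrins at 11.3 ± 0.45 and 12.1 ± 0.57. In HCC827 the laminin mean varied widely between libraries, 21.0 ± 4.33 in control against 16.3 ± 3.6 in DTP, while the integrin mean was tighter, 21.2 ± 0.58 against 17.5 ± 0.54. These means are descriptions and carry no test, and levels in different lines come from different sets of regions.

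**Figure D1:**
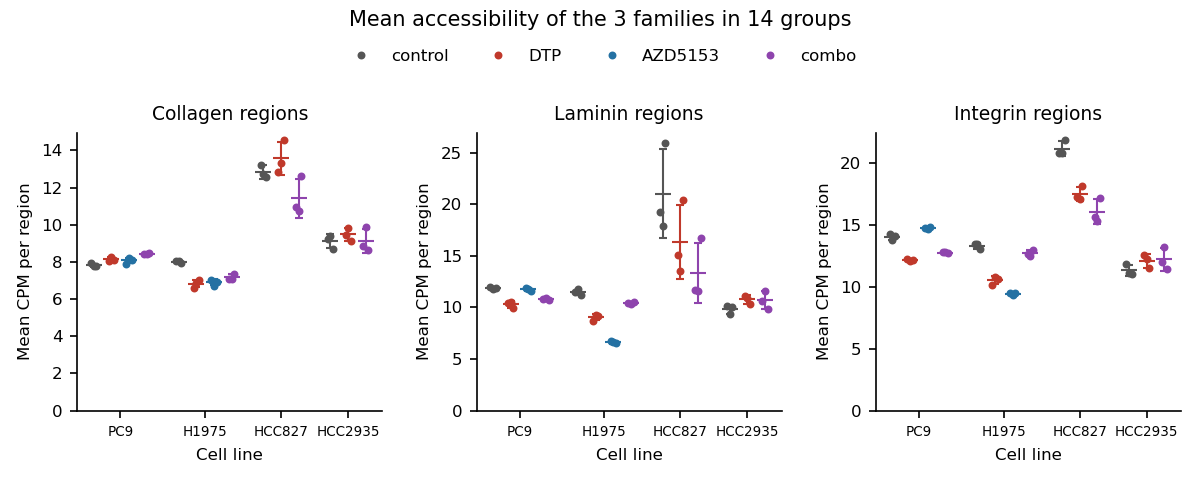
Mean accessibility per region (CPM, TMM-scaled) of the collagen, laminin and integrin regions in the 14 groups, with points for libraries and bars for the mean ± SD of 3 libraries. In H1975 the laminin mean falls from 11.5 in control to 9.05 in DTP and 6.63 with AZD5153 alone, and stands at 10.4 in combo.

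Comparing DTP with control asks what long osimertinib exposure leaves behind. In PC9 and H1975 collagen regions were called about as often in one direction as in the other or more often higher, while laminin and integrin regions were called lower more often than higher, a surplus that in H1975 was removed by scaling by library size alone. In PC9 laminins had 18.4% of regions higher and 30.3% lower and integrins 11.2% and 30.8%, above the 21.7% lower of annotated regions in general. In H1975 laminins had 24.1% and 42.2% and integrins 24.1% and 40.5%, near the 25.8% and 36.8% of annotated regions. In HCC2935 all 3 families held more higher than lower calls. In HCC827 no member passed in the edgeR fit without the replicate block.

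In PC9, 46 collagen regions were higher and 31 lower of 223 (median log2 fold change 0.09), 14 laminin regions were higher and 23 lower of 76 (−0.10), and 12 integrin regions were higher and 33 lower of 107 (−0.25). Over all regions tested in PC9, 31.7% were called, and over annotated regions 38.0% (16.4% higher, 21.7% lower). The collagen share called lower, 13.9%, lay under that annotated share, and the integrin share called lower, 30.8%, lay above it. With libraries summed, the 3 families together had 40 higher and 53 lower calls in place of 72 and 87, with 9.6% of all regions called higher and 9.79% lower.

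In H1975 51.9% of all regions and 62.6% of annotated regions were called (25.8% higher, 36.8% lower). Of 234 collagen regions 79 were higher and 80 lower (median 0.03). Laminins had 20 higher and 35 lower of 83 (−0.08) and integrins 28 higher and 47 lower of 116 (−0.18), but scaling by library size alone, which moved the median of all H1975 regions from 0.02 to 0.22, turned these to 32 against 29 and 39 against 39, with collagens at 103 against 64. The surplus of lower integrin calls lay outside promoters, where 11 were higher and 34 lower of 64. Among integrin promoters 17 were higher and 13 lower of 52. The summed fit called 82 higher and 124 lower over the 3 families, in place of 127 and 162 (18.4% and 21.8% of all regions).

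HCC2935 had a background of 37.3% of all regions and 45.1% of annotated regions (23.9% higher, 21.2% lower). Collagens had 50 higher and 42 lower calls of 161 (median 0.14), laminins 26 and 17 of 83 (0.21), and integrins 24 and 12 of 100 (0.21). Broad shifts along chromosomes occur in this line. After the median of each 10 Mb stretch was taken off, integrins stood at 16 higher and 15 lower, with a median of 0.00.

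**Figure D2:**
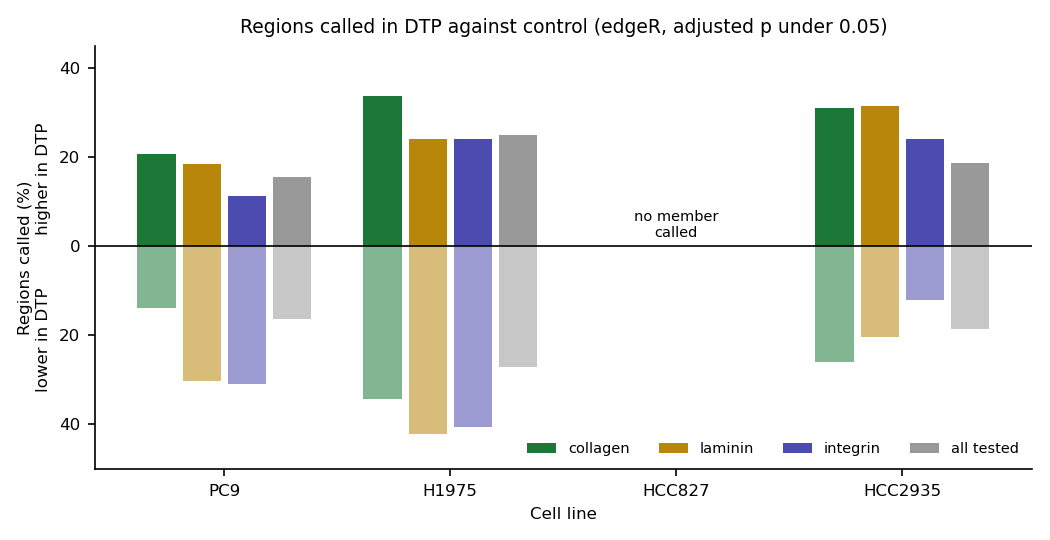
Percent of tested regions called higher (up) and lower (down, paler) in DTP against control for each family and for all regions tested, by line. Integrin regions of PC9 reach 11.2% higher and 30.8% lower, HCC827 shows no calls, and the lower surplus of H1975 laminins and integrins is absent when libraries are scaled by size alone.

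The counts by gene group and by gene that follow are to be read beside the shares of annotated regions in general. These were 16.4% higher and 21.7% lower in PC9, 25.8% and 36.8% in H1975, and 23.9% and 21.2% in HCC2935. In PC9 and H1975 that background itself holds more lower than higher calls. Among collagens, the fibrillar types (the rope-forming collagens such as COL1A2 and COL5A1) were called higher more often than lower in H1975 and HCC2935, with 18 higher and 8 lower of 44 regions and 18 and 3 of 36, against 7 and 6 of 38 in PC9. COL5A1, a chain that limits fibril width, had 11 higher and 1 lower of 21 regions in H1975 and 10 higher and 0 lower of 13 in HCC2935, but 0 higher and 1 lower of 12 in PC9. Its promoter in HCC2935 measured 8.30, 13.3 and 9.39 CPM in control and 18.6, 23.7 and 19.8 in DTP, with no overlap (log2 1.03, adjusted p = 9.79e-06). Its H1975 promoter had a smaller difference, 11.4 to 14.7 against 17 to 20.1 CPM (0.48, adjusted p = 9.64e-05, and adjusted p = 0.106 with libraries summed).

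COL1A2, a chain of type I collagen, had a large promoter change in HCC2935. Its promoter region measured 4.80, 3.25 and 4.69 CPM in control and 20.7, 13.6 and 13.4 in DTP. Every DTP library lay above every control library (1.88 ± 0.24, adjusted p = 2.79e-08), and the combo libraries at 8.66 to 11.7 CPM lay between those groups. An intronic region of COL11A1, a minor fibril chain, at chr1:102941231-102941732 was near closed in control (0.437, 0 and 0 CPM) and measured 8.17, 8.10 and 6.49 in DTP.

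Fibril-associated collagens, which sit on fibril surfaces, were split by line: 15 higher and 6 lower of 67 regions in PC9, 28 and 11 of 50 in H1975, and 7 and 18 of 42 in HCC2935. COL21A1 accounts for most of the HCC2935 losses, with 0 higher and 15 lower of 21 regions. Its intronic region at chr6:56199906-56200407 dropped from 21.0, 14.2 and 12.8 CPM to 2.85, 2.15 and 1.14 (−2.97 ± 0.28, adjusted p = 1.17e-11). In H1975 the group's rises were led by COL20A1 with 8 higher of 10 regions, COL22A1 with 6 of 7 and COL12A1 with 4 of 4, none of them lower. The COL12A1 promoter there went from 2.78, 4.84 and 4.04 to 7.17, 8.73 and 7.05 CPM (0.96, adjusted p = 2.09e-06). COL16A1 had 7 higher and 2 lower of 15 regions in PC9.

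Transmembrane collagens, which stay anchored in the cell surface, had more lower than higher calls in PC9, H1975 and HCC2935, with 4 higher and 10 lower of 26 in PC9, 3 and 21 of 34 in H1975, and 0 and 6 of 8 in HCC2935. Most of these were COL13A1 regions, with 1 higher and 10 lower of 22, 2 and 19 of 26, and 0 and 3 of 5. The largest collagen rise of PC9 nevertheless belonged to the same class, an intronic region of COL23A1 at chr5:178331413-178331914. It measured 0.318, 1.27 and 0.992 CPM in control, 6.56, 9.80 and 8.51 in DTP and 18.8, 18.3 and 17.6 in combo, against 0.232 to 2.39 with AZD5153 alone (3.16 ± 0.36 for DTP, adjusted p = 7.09e-16).

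The remaining collagen groups were mixed. Network-forming collagens, the type IV sheet of basement membranes among them, had 11 higher and 4 lower of 39 regions in PC9, 11 and 14 of 32 in H1975 (15 and 11 under library size scaling) and 12 and 6 of 31 in HCC2935. Beaded-filament collagen VI had 4 and 4 of 24, 6 and 11 of 29 (9 and 9 under library size scaling), and 5 and 3 of 15. Collagens XV and XVIII, basement membrane proteoglycans, had 2 and 0 of 8, 2 and 10 of 16, and 3 and 1 of 6, with COL15A1 alone giving 1 higher and 10 lower of 13 in H1975. COL26A1 had 6 higher and 2 lower of 18 regions in H1975 and 3 and 0 of 7 in HCC2935. Annotated regions in general were called higher in 25.8% and 23.9% there. In PC9 COL26A1 had 1 and 0 of 10, a share under the 16.4% of annotated regions called higher. The promoter of COL4A2 was lower in PC9 (−1.08, adjusted p = 0.00318) and H1975 (−0.75, adjusted p = 0.00142). The largest collagen changes of H1975 lay at distal regions, one near COL5A3 (chr19:9958319-9958820, 0.135 to 0.619 CPM in control and 5.67 to 7.55 in DTP, 4.24 ± 0.35) and one near COL28A1 (chr7:7323294-7323795, 13.8 to 18.8 in control and 0.512 to 1.01 in DTP, −4.45 ± 0.22).

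Among laminins, the epithelial chains LAMA3 and LAMB3 were called lower more often than higher in PC9 and H1975. Annotated regions in general leaned the same way, with 16.4% higher and 21.7% lower in PC9 and 25.8% and 36.8% in H1975. LAMA3 had 2 higher and 3 lower of 7 regions in PC9, 1 and 5 of 10 in H1975 and 1 and 1 of 7 in HCC2935. LAMB3 had 0 higher and 3 lower of 6 regions in PC9, 0 and 6 of 7 in H1975 (0 and 2 under library size scaling) and 2 and 1 of 8 in HCC2935. LAMA1, LAMA2, LAMA4, LAMA5, LAMB1, LAMB2, LAMB4, LAMC1 and LAMC3 together had 11 and 14 of 57 in PC9, 19 and 18 of 58 in H1975, and 20 and 15 of 58 in HCC2935.

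The LAMA3 promoter, with its pair of AP-1 matches, measured 51.2, 51.4 and 53.1 CPM in H1975 control and 22.6, 25.3 and 25.5 in DTP. The groups did not overlap (−1.08 ± 0.08, adjusted p = 1.20e-30). In PC9 it measured 54.0, 50.5 and 52.3 in control and 39.9, 40 and 33.3 in DTP (−0.47 ± 0.09, adjusted p = 3.69e-06), a smaller difference that did not pass with libraries summed (adjusted p = 0.129). HCC827 libraries ran from 26.7 to 63.7 in control and from 5.73 to 19.9 in DTP (−1.88 ± 0.52, adjusted p = 0.258, and adjusted p = 5.06e-04 with the replicate block). In HCC2935 the groups overlapped, with 14.5 to 27.7 CPM in control and 17.7 to 19.0 in DTP (−0.19, adjusted p = 0.40).

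The LAMB3 promoter region at the printed window changed less. It measured 27.7, 30.3 and 28.3 against 22.4, 21.0 and 26.4 in H1975 (−0.30, adjusted p = 0.00225), and its PC9 value of −0.35 lay at the threshold (adjusted p = 0.0499), which it passed in only 5 of 23 alternatives. The H1975 call was also lost with libraries summed (adjusted p = 0.248). A further LAMB3 promoter region, at chr1:209652061-209652562 in PC9, rose by 1.00 in HCC2935 (adjusted p = 4.54e-04) and stood at −0.03 in PC9 and −0.02 in H1975.

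ITGA6, the alpha chain of an epithelial laminin receptor, was also lower at its promoter in PC9 and H1975. In H1975 it measured 19.8, 18.6 and 19.4 CPM in control and 8.45, 7.71 and 6.38 in DTP (−1.36 ± 0.13, adjusted p = 3.08e-21). In PC9 it measured 51.8, 42.1 and 44.4 against 33.3, 28.9 and 31.3 (−0.55, adjusted p = 4.09e-07, and adjusted p = 0.0694 with libraries summed). HCC2935 went the other way, 13.3 to 13.6 in control and 17.2 to 19.9 in DTP (0.46, adjusted p = 0.0237), a call that was lost when regional medians were removed (0.30, adjusted p = 0.17).

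**Figure D3:**
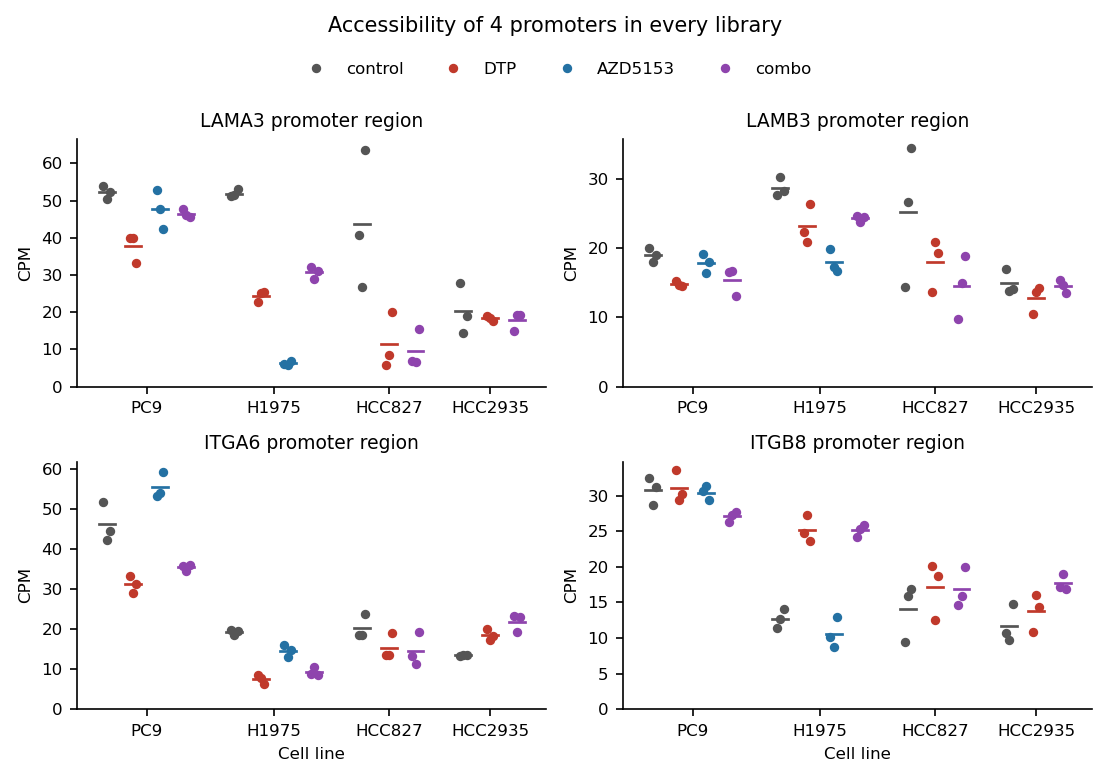
Accessibility (CPM, TMM-scaled) of the promoter regions of LAMA3, LAMB3, ITGA6 and ITGB8 in each library of the 14 groups, with a line at the group mean. The H1975 LAMA3 libraries lie between 51.2 and 53.1 in control, 22.6 to 25.5 in DTP, and 5.75 to 6.96 under AZD5153 alone.

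Within LAMA3 some elements moved against the promoter. An intronic LAMA3 region of H1975 at chr18:23784879-23785380 rose from 0.155, 0.269 and 0.809 CPM to 2.18, 3.86 and 3.13 (2.82 ± 0.40) while the LAMA3 promoter dropped. LAMA5, a chain of adult epithelial laminins, had more higher than lower calls in all 3 lines, 5 and 0 of 19, 10 and 2 of 20, and 5 and 1 of 11. Its intron 2 region in HCC2935 at chr20:62361760-62362261 went from 2.18, 1.18 and 1.88 to 26.4, 24.5 and 20.8 CPM (3.72 ± 0.25, adjusted p = 8.77e-16).

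LAMA4, a chain of laminins in vessels and muscle, had more lower than higher calls in all 3 lines, with 1 higher and 8 lower of 11, 0 and 6 of 7, and 0 and 5 of 6. LAMC1, the gamma chain of most laminins, differed between lines, with 1 higher and 6 lower of 9 regions in H1975 against 8 and 6 of 16 in HCC2935. Its intron 1 region at chr1:183055093-183055594 in H1975 dropped from 14.2, 11.3 and 8.22 to 1.28, 1.36 and 0.56 CPM (−3.38 ± 0.24). Its HCC2935 promoter rose from 5.46, 8.86 and 5.95 to 11, 13.9 and 11.8 (0.88, adjusted p = 9.67e-04). The LAMA1 promoter, of an embryonic chain, was the largest laminin rise of PC9, 0.635, 1.27 and 1.74 CPM against 6.56, 3.35 and 4.25 (1.89 ± 0.38).

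Integrins that bind collagen (ITGA1, ITGA2, ITGA10 and ITGA11) had 2 higher and 6 lower of 18 regions in PC9 and 2 and 10 of 19 in H1975, against 5 and 2 of 18 in HCC2935, which became 0 and 4 with regional medians removed. ITGA1 gave most of the HCC2935 rises, 4 higher and 0 lower of 7. Its promoter difference there of 0.82 stood in a stretch whose median was 0.47, and 0.37 remained after that was removed (adjusted p = 0.314). ITGA2 had 1 higher and 6 lower of 8 regions in H1975 and 0 and 2 of 8 in HCC2935.

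Laminin-binding integrins had 5 higher and 12 lower of 31 regions in PC9, 6 and 14 of 27 in H1975 (9 and 11 under library size scaling), and 3 and 4 of 20 in HCC2935. ITGA6 had 2 and 6 of 10, 0 and 5 of 6, and 2 and 0 of 5. ITGA3, the other main laminin receptor of epithelia, had 1 and 6 of 13, 4 and 8 of 15, and 1 and 4 of 8, so its lower calls outnumbered the higher ones in all 3 lines. Among annotated regions in general that was also so in PC9 and H1975, but not in HCC2935 (23.9% higher, 21.2% lower).

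Integrins that bind the arginine-glycine-aspartate sequence of fibronectin and latent TGF-beta had 3 higher and 12 lower of 36 regions in PC9, 12 and 19 of 46 in H1975 (18 and 16 under library size scaling), and 14 and 6 of 46 in HCC2935. The H1975 shares lay near those of annotated regions in general (25.8% higher, 36.8% lower). ITGB8, whose alpha-v partner complex also activates TGF-beta, stood out at its promoter in H1975, with 11.4, 12.6 and 14 CPM in control and 24.7, 27.3 and 23.6 in DTP (0.98 ± 0.11, adjusted p = 2.48e-16). The call held with libraries summed (adjusted p = 1.91e-04), and in the other lines the ITGB8 promoter did not pass the test. The ITGAV promoter was lower in PC9 (−0.45, adjusted p = 4.2e-04) in the fit that takes the small spread of PC9 itself, and its result with libraries summed is not given.

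ITGB5, the beta chain of a vitronectin receptor, held both the largest integrin rise and the largest integrin fall of H1975 within the same gene. A region annotated as an exon at chr3:124791576-124792077 went from 4.48, 5.92 and 4.18 to 13.2, 14.1 and 16.3 CPM (1.58 ± 0.15, adjusted p = 5.95e-20). An intron 8 region at chr3:124814605-124815106 went from 11.4, 11.2 and 11.5 to 1.28, 1.36 and 0.896 (−3.26 ± 0.22, adjusted p = 1.17e-33). In PC9 the largest integrin fall was in ITGA5, whose region annotated between 1 and 2 kb from the start of an internal transcript, away from the RefSeq start (chr12:54411218-54411719), measured 5.95 to 7.86 in control and 1.25 to 3.09 in DTP (−1.61).

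ITGB6, the beta chain of the epithelial TGF-beta activating integrin, showed opposite changes at different elements. In PC9 an intron 5 region at chr2:160157874-160158375 measured 1.59, 3.04 and 2.23 CPM in control, where the authors called no peak in any library, and 13.6, 12.9 and 12.8 in DTP, where they called a peak in 3 of 3 (2.47 ± 0.25, adjusted p = 3.71e-19). With AZD5153 alone it measured 0.235 to 1.16, each library below every control library, and in combo it was at 15.9 to 18. The matching HCC2935 region measured 0.218, 0.591 and 0.626 in control, 3.04, 2.48 and 2.48 in DTP and 6.32, 6.34 and 9.66 in combo (2.50 ± 0.54 for DTP, adjusted p = 2.81e-04), with peaks called in combo only. In H1975 the same place was counted but is not among the annotated regions, and it measured 0 to 0.404 in control and 1.15 to 1.59 in DTP (2.84, adjusted p = 1.29e-05). A more open exonic ITGB6 region moved down in the same lines, from 70.7 to 76.1 CPM in control to 38.9 to 39.1 in H1975 DTP (−0.90, adjusted p = 3.35e-29), with −0.40 in PC9 and −0.31 in HCC2935. In all, ITGB6 had 2 higher and 3 lower of 8 regions in PC9, 0 and 9 of 11 in H1975, and 5 and 2 of 16 in HCC2935.

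**Figure D4:**
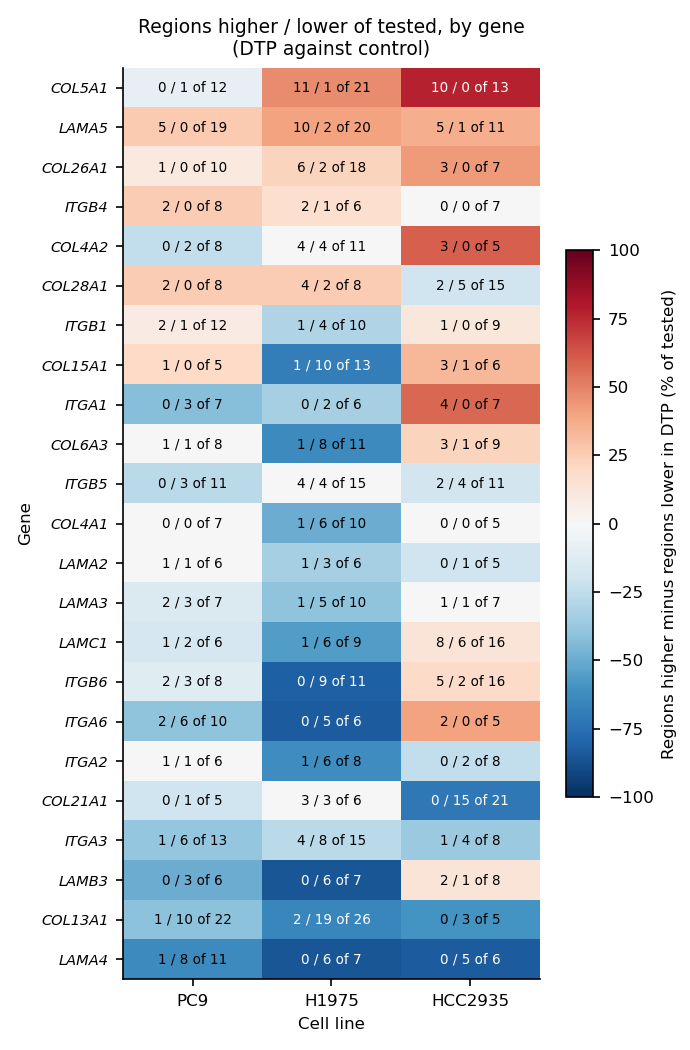
Net percent of regions (called higher minus called lower in DTP against control) for 23 genes with at least 5 tested regions in each of PC9, H1975 and HCC2935. COL5A1 stands at −8.33% in PC9, 47.6% in H1975 and 76.9% in HCC2935.

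HCC827 gave no call among 153 members in DTP against control, with a background of 0.0219% of all regions and 0.0458% of annotated regions. The test had 21 members at an unadjusted p under 0.05, DESeq2 called 3 and limma's voom fit 1. The libraries of this line pair by replicate number, and with that block 12 members were called, 4 higher and 8 lower, against 3.88% of all regions. Collagens had 2 higher, both in COL5A1, and 0 lower of 47. Laminins had 1 higher and 3 lower of 36, the lower ones being 1 region each of LAMA3, LAMB3 and LAMB1. Integrins had 1 higher and 5 lower of 70, the lower ones being 2 of 5 ITGA2 regions and 1 region each of ITGA3, ITGA6 and ITGB6.

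The COL5A1 region of HCC827 at chr9:134706935-134707436 measured 4.98, 3.18 and 1.69 CPM in control and 18.6, 17.6 and 9.65 in DTP (2.19 ± 0.51, adjusted p = 0.176, and adjusted p = 0.00359 with the block). An intronic LAMB1 region measured 3.82 to 7.47 against 16.8 to 27.0 (2.10, block adjusted p = 0.00123). A region tied to ITGB3, annotated as an exon of a transcript without a gene number, measured 16.0 to 22.4 against 47.8 to 72.7 (1.62, block adjusted p = 7.51e-04). The exonic ITGB6 region was lower within each pair, 61.3, 49.0 and 85.2 CPM in control against 32.2, 25.2 and 47.3 in DTP (−0.89, block adjusted p = 0.0304). In the edgeR fit without the block, with all libraries, none of the 4 regions passed, and each passed in 1 to 6 of 19 alternatives, the block among them.

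The same place in the genome could be compared where regions of all 4 lines overlapped by at least 50% in both directions. This gave 346 places where the region was a member in at least 1 line, and each was tested in the full table of every line where it passed the count filter, also where it was not annotated and so was no member of that line. The DTP difference varied between lines in 152 of them (43.9%) by an interaction test with edgeR, against 39.2% of 78368 matched regions of all genes. The shares were 70 of 171 for collagens, 37 of 75 for laminins and 45 of 100 for integrins. In at least 3 lines, 9 members were called higher (4 collagen, 4 laminin, 1 integrin) and 19 lower (7, 4 and 8), and 29 were called higher in some line and lower in another. These are 2.6%, 5.49% and 8.38% of the 346, against 2.52%, 4.16% and 8.52% of the 60825 matched regions annotated to any gene in at least 1 line.

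Regions called higher in PC9, H1975 and HCC2935 included an internal COL16A1 promoter at chr1:31666444-31666945, with 4.77, 5.07 and 6.45 CPM in PC9 control and 13.6, 13.4 and 11.8 in DTP (1.23), and folds of 1.74 in H1975 and 2.14 in HCC2935. This promoter lies within the gene, away from the RefSeq start of COL16A1. A LAMA3 region at chr18:23844976-23845477 had folds of 1.28, 2.89 and 2.44. The integrin among them was ITGB6, at chr2:160209418-160209919, with 2.31, 1.04 and 2.06. In H1975 this place was counted but not annotated, so it is not among the 11 ITGB6 regions of that line.

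Regions called lower in the same 3 lines were led by LAMA4, COL13A1 and ITGB5. The LAMA4 intron at chr6:112203942-112204443 measured 17.8, 17.7 and 16.6 CPM in PC9 control and 6.32, 4.38 and 4.76 in DTP (−1.74 ± 0.19, adjusted p = 1.35e-16), with −3.0 in H1975 and −1.27 in HCC2935. A further region tied to LAMA4, at chr6:112297927-112298428, gave −1.59, −2.40 and −1.66. It lies upstream of the LAMA4 start and is annotated as an intron of a transcript with another gene number. The COL13A1 intron at chr10:69864343-69864844 measured 13.0, 9.38 and 8.43 in PC9 control and 2.43, 3.35 and 1.5 in DTP (−2.04), with −2.05 and −1.30 in the other lines. An internal ITGB5 promoter at chr3:124878458-124878959 was lower by −0.82 in PC9, −0.53 in H1975 and −1.07 in HCC2935, while in HCC827 its −0.70 did not pass (adjusted p = 0.95). One ITGA2 region, 3 ITGA3 regions and 1 ITGA6 region were also lower in all 3 lines. In HCC2935 the ITGA6 place is not among the 5 annotated ITGA6 regions of that line, of which 0 were called lower.

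**Figure D5:**
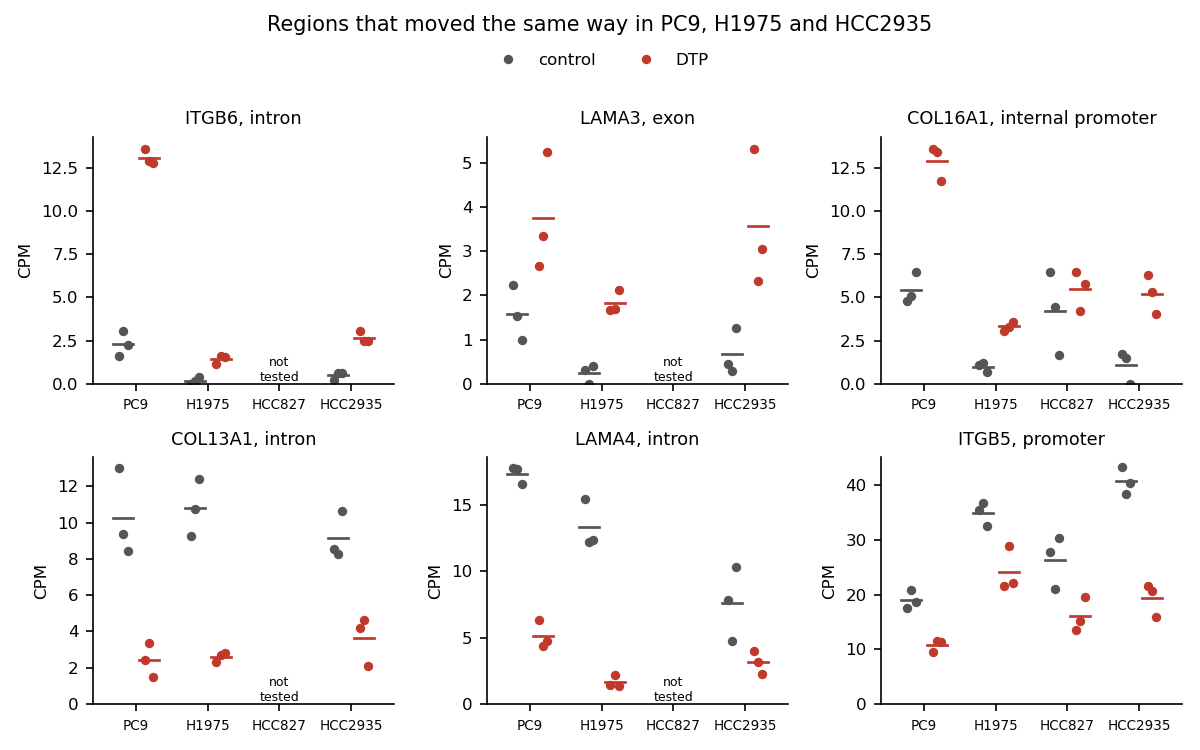
Control and DTP accessibility (CPM, TMM-scaled, 3 libraries a group) of 6 member regions in the 4 lines, with regions below the count filter in HCC827 marked as not tested. The PC9 ITGB6 intron libraries lie at 1.59 to 3.04 in control and 12.8 to 13.6 in DTP, and the PC9 LAMA4 intron libraries at 16.6 to 17.8 and 4.38 to 6.32.

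Among matched members, the line interaction had its lowest adjusted p at COL6A3, COL2A1 and LAMA5, which does not rank the size of the differences. The region tied to COL6A3, at chr2:237432614-237433115, is annotated as an exon of a transcript without a gene number. It lies upstream of the start to which its distance was measured, so it is not shown to be an exon of COL6A3. In H1975 it measured 27.1, 32.7 and 34.5 CPM in control and 10.2, 9.30 and 9.74 in DTP (−1.70). Its folds were 0.23 in PC9, −0.13 in HCC827 and 0.79 in HCC2935 (interaction F = 37.2). The region tied to COL2A1, at chr12:48021838-48022339, is annotated as an intron of a transcript without a gene number. It also lies upstream of the start to which its distance was measured, so it is not shown to lie in COL2A1. It was lower by −3.43 in H1975 and −0.87 in PC9, and stood at 0.38 and −0.12 in HCC827 and HCC2935 (F = 37.1). The LAMA5 intron 2 region had folds of 2.39 in H1975, 3.72 in HCC2935, 0.36 in PC9 and 0.03 in HCC827 (F = 35.2).

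Comparing combo with DTP asks what differs when the last 3 days held AZD5153. If osimertinib was stopped for those 3 days, its withdrawal cannot be told apart from the effect of AZD5153. This comparison shares the DTP libraries with the comparison above. In H1975 laminin and integrin regions were called higher in combo more often than lower, and annotated regions in general leaned the same way. In PC9 calls were balanced. In HCC2935 the calls were more often lower, at shares near those of annotated regions in general.

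In H1975, 36 collagen regions were higher and 26 lower, 21 laminin regions higher and 5 lower, and 39 integrin regions higher and 10 lower, in all 96 and 41 of 433. The background was 21.0% of all and 32.6% of annotated regions (22% higher, 10.6% lower). Library size scaling gave 75 higher and 60 lower, with collagens turned to 27 against 41, laminins at 15 against 7 and integrins at 33 against 12. With libraries summed 22 were higher and 9 lower, against 5.97% of all regions. LAMA3 had 4 higher and 0 lower of 10 regions, LAMB3 3 and 0 of 7, and integrins binding arginine-glycine-aspartate 19 and 1 of 46. The LAMA3 promoter measured 32.3, 28.8 and 31.0 (0.32 above DTP, adjusted p = 0.00215 in the fit with the spread of H1975 itself), below its control. The ITGA6 promoter at 8.44 to 10.6 CPM and the ITGB8 promoter at 24.1 to 25.9 remained near their DTP values.

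In PC9, 62 members were higher and 59 lower of 406, with a background of 22.3% of all and 29.2% of annotated regions, and with libraries summed 12 were higher and 18 lower, against 8.11% of all regions (2.55% and 5.55%). The named ITGB5 internal promoter dropped further, from 9.48, 11.6 and 11.3 CPM in DTP to 2.93, 2.39 and 3.73 in combo (−1.83 ± 0.25, adjusted p = 6.96e-11), while with AZD5153 alone it was at 14.3 to 19.5, near its control. A region 1 to 2 kb from the ITGB3 start, chr17:47252090-47252591, rose from 4.37, 4.13 and 2.75 to 11, 8.22 and 10.1 (1.38 ± 0.24).

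In HCC2935, 10 members were higher (2.91%) and 35 lower (10.2%), with a background of 8.31% of all and 12.9% of annotated regions (3.28% higher, 9.59% lower). Without DTP replicate 2, 25 members were called in all. A distal ITGA6 region at chr2:172408358-172408859 measured 1.56 to 3.06 CPM in control, 7.41, 7.77 and 6.68 in DTP and 1.12, 2.16 and 1.41 in combo (−2.16 ± 0.30, adjusted p = 2.12e-06). A COL21A1 region at chr6:56065419-56065920, annotated as the promoter of an internal transcript and away from the RefSeq start, rose from 2.10 to 3.14 in DTP to 5.64 to 8.5 in combo (1.47). HCC827 had no call in the edgeR fit, with the block or by DESeq2 or voom, and 10 members were at an unadjusted p under 0.05. Promoters of LAMC1, ITGB1 (the most widely shared beta chain) and ITGAV were higher in combo in each of PC9, H1975 and HCC2935, by 0.40, 0.44 and 0.58 for LAMC1, 0.34, 0.31 and 0.50 for ITGB1 and 0.36, 0.39 and 0.58 for ITGAV. These were picked from the promoters of 24 listed genes, and the others are not all reported for this comparison. Results with libraries summed are not given for these small folds. In H1975 annotated regions in general leaned the same way (22% higher, 10.6% lower).

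AZD5153 alone against control, run in PC9 and H1975, shows what this inhibitor did without osimertinib. It shares the control libraries with the DTP comparison. In H1975 more members were called lower than higher, laminins most of all, and annotated regions in general leaned the same way. In PC9 more members were called higher than lower.

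In H1975, 70 collagen regions were higher and 98 lower (median −0.25), 17 laminin regions higher and 48 lower (−0.68), and 25 integrin regions higher and 62 lower (−0.39), against a background of 58.1% of all and 72.2% of annotated regions (29.0% higher, 43.2% lower). Library size scaling turned collagens to 88 higher and 78 lower, and left laminins at 22 and 45 and integrins at 34 and 49. With regional medians removed the families stood at 74 and 99, 16 and 45, and 30 and 46. With libraries summed, 85 members were higher and 172 lower, against 48.2% of all regions. LAMA3 had 2 higher and 6 lower of 10 regions and LAMB3 0 and 6 of 7. The LAMA3 promoter measured 6.06, 5.75 and 6.96 CPM against 51.2 to 53.1 in control (−3.03, adjusted p = 2.34e-74, and −2.74 with the regional median removed). The LAMB3 promoter was lower by −0.68, of which −0.22 remained (adjusted p = 0.0692). The COL12A1 promoter rose to 14.8 to 17.6 CPM (2.04, adjusted p = 1.37e-27), and the promoter of COL7A1, the anchoring fibril collagen, rose by 1.85 (adjusted p = 3.49e-34). The largest rise was at a 5′ untranslated exon of ITGB5, chr3:124858940-124859441, from 0.773, 0.538 and 0.944 to 13.4, 16.2 and 12.7 (4.18 ± 0.24, adjusted p = 8.91e-42), while DTP libraries lay at 1.28 to 2.50 and combo libraries at 1.80 to 2.62.

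In PC9, AZD5153 alone gave 76 higher and 50 lower calls of 406 (35 and 28 collagen, 17 and 9 laminin, 24 and 13 integrin), with a background of 25.8% of all and 32.4% of annotated regions (14.3% higher, 18.2% lower), and 38 and 30 with libraries summed, against 14.1% of all regions. A region tied to COL16A1, at chr1:31650951-31651452, is annotated as an intron of a transcript without a gene number. It measured 10.2, 4.06 and 8.68 in control and 1.20, 1.62 and 1.41 with AZD5153 (−2.38, adjusted p = 2.09e-11). In DTP it lay at 15.3 to 19.8, and in combo it reached 21.7 to 26.1.

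The effect of AZD5153 after osimertinib was tested against its effect alone by an interaction term. The effect after osimertinib would include osimertinib withdrawal if that drug was stopped. In H1975 178 members had a more positive AZD5153 effect after osimertinib and 80 a more negative one, with 79 and 58 for collagens, 44 and 11 for laminins and 55 and 11 for integrins, against 59.8% of annotated regions called (40% and 19.8%). Library size scaling gave 147 and 125, and 140 and 52 were called with libraries summed, against 30.9% of all regions. In PC9 33 were more positive and 50 more negative, against 18.9% of annotated regions, and 9 and 16 with libraries summed, against 4.81% of all regions.

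A list of 72 other matrix and adhesion genes, taken up with earlier results of these data known, was counted beside the families. In DTP against control its regions had 54 higher and 95 lower calls of 393 in PC9, 131 and 162 of 438 in H1975, 1 and 0 of 153 in HCC827 and 141 and 64 of 390 in HCC2935. Shares were 13.7% higher and 24.2% lower in PC9, against 16.4% and 21.7% of annotated regions. H1975 had 29.9% and 37.0%, against 25.8% and 36.8%. In HCC2935 36.2% of these regions were higher and 16.4% lower, against 23.9% and 21.2% of annotated regions. The HCC2935 shares were not corrected for the broad shifts along chromosomes in that line.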

How the data were processed

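ATAC-seq libraries of the 4 lines were analysed from tables of raw counts per region deposited by the authors, with peak lists giving a −log10 q-value per peak as deposited and an annotation of a subset of the regions. The submitters' processing notes name BWA 0.7.17, SAMtools 1.9, deepTools 3.4, MACS2 2.2.6, featureCounts 2.0.0, ChIPseeker 1.29.1 and hg38, without roles or order. The labels' extract protocol describes H3K27ac ChIP while the titles say ATAC-seq, and the handling of transposase insertions is not stated there. Peaks were called per library, and a peak was counted for a region where it overlapped it.

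Groups came from the labels. Each line's full table was filtered (filterByExpr), scaled by TMM and fitted in edgeR 4.0.16 (R 4.3.3) as 1 quasi-likelihood model holding every group of that line, with Benjamini-Hochberg adjustment over the regions tested, 126506 for PC9, 191202 for H1975, 82309 for HCC827 and 154179 for HCC2935. Standard errors are the fold divided by the square root of F. All but 1 of the members passed the filter, the exception being in HCC827. Differences of DTP between lines were tested by an interaction in 1 model of the matched regions. That model took 1 spread per region for all lines, whose own spreads ran from 0.988% in PC9 to 45% in HCC827. Alternatives were library size scaling, no filter, annotated regions only, DESeq2 1.42.0, limma 3.58.1 (voom), the replicate block, each library left out, libraries summed, and the median of each 10 Mb bin removed. The scripts were tested on simulated data. PC9 and H1975 p-values measure a spread that may be largely technical.

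Same-numbered libraries of HCC827 deviated together from their group means (correlations of 0.25 to 0.87), so its replicate block is printed beside its results. Named regions were, per line and family, the called region with the largest rise and fall in DTP against control. These had to lie above median level, with groups that did not overlap. Also named were the largest over the families in the other comparisons, the promoters of 24 listed genes and regions called the same way in at least 3 lines. The genes with the most calls and the regions with the lowest adjusted p in the line interaction completed the list. The members, lists and rules were chosen with earlier results of these data known. Some items that the rule names are not reported here.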

Additional observations from a re-analysis of the deposited data

Results flagged for a closer look

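The following member regions were singled out because a test of the difference between effects passed. Among members, the DTP by line interaction test gave its lowest adjusted p at COL6A3 (F = 37.17), COL2A1 (F = 37.06) and LAMA5 (F = 35.19). These are the values for the regions described in the report.

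Between AZD5153 given after osimertinib and AZD5153 given alone, the effect differed in PC9 by −1.715 on the log2 scale at the internal ITGB5 promoter (edgeR adjusted p = 3.29e-07). At the region tied to COL16A1 it differed by 2.747 (edgeR adjusted p = 3.29e-12). In H1975 it differed by 2.486 at a COL4A2 region between 1 and 2 kb from the start (adjusted p = 3.48e-08), by −3.939 at the 5′ untranslated exon of ITGB5 (adjusted p = 1.60e-15) and by 4.751 near COL28A1 (adjusted p = 5.26e-10). The COL4A2 region (chr13:110304097-110304598) measured 6.19 to 7.28 CPM in control, 0.448 to 0.907 in DTP, 3.14 to 4.26 with AZD5153 alone and 2.12 to 2.49 in combo. The COL28A1 region was already at 0.512 to 1.01 CPM in DTP, with a peak called in 1 of 3 libraries, and at 0.228 to 0.697 CPM with AZD5153 alone, and its fall of −5.03 became −5.27 with the regional median removed. With 3 libraries a group, single libraries were not tested as outliers.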

How the results depend on the processing

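Of the values of named regions, 2113 of those called kept direction and call under an alternative, 204 lost the call and 3 changed sign. All 3 were for AZD5153 alone in H1975, the ITGA6 promoter at 0.0127 with regional medians removed and the ITGAV promoter at 0.0277 with library size scaling and 0.515 with regional medians removed. Counts of called members moved by over 1.5 times as follows, and the cause was not tested except where fewer samples or regions are the alternative itself. With libraries summed, PC9 had 93 in DTP, 30 in combo, 68 with AZD5153 alone and 25 in the interaction, and H1975 had 31 in combo. DESeq2 gave 44, 77 and 35 in PC9 (combo, AZD5153 alone, interaction), 79 in H1975 combo, 3 in HCC827 DTP and 23 in HCC2935 combo. Without the filter, PC9 had 79 in combo and 48 in the interaction and HCC2935 28 in combo. HCC827 DTP had 1 with voom, 2 with annotated regions only and 14 with the replicate block and regional medians removed, which was chosen after seeing the data.

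Leaving out 1 library at a time gave 138 to 158 called members in PC9 DTP, 81 to 122 in combo, 105 to 128 with AZD5153 alone and 65 to 74 in the interaction, and 259 to 284, 106 to 139, 297 to 323 and 245 to 258 in H1975. HCC2935 gave 140 to 174 in DTP and 25 to 52 in combo, the 25 without DTP replicate 2. HCC827 DTP gave 0 to 2, the 2 without combo replicate 3, and HCC827 combo 0 to 0. The matched regions gave 132 to 175. In the H1975 interaction, annotated regions only gave 162 more positive and 113 more negative, and in H1975 combo 80 higher and 67 lower. Without the filter, PC9 combo had 54 higher and 25 lower, PC9 AZD5153 alone 75 and 30, and HCC2935 DTP 107 and 44.

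The replicate block gave 12 in HCC827 DTP. In the other lines same-numbered libraries did not deviate together (correlations from −0.068 to 0.025 in PC9, −0.080 to 0.092 in H1975 and −0.276 to 0.378 in HCC2935), so they share only a number. There the block gave 161 in PC9 DTP, 287 in H1975 DTP, 173 in HCC2935 DTP and 50 in HCC2935 combo. The matched regions gave 156 with the block, and 124 of 281 at 80% overlap. HCC827 had both the lowest totals (from 1724680 counts) and the widest spread between libraries, and their parts were not told apart.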
